A study of Saccharomyces cerevisiae with 12 samples.

Results

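The SNR genes of budding yeast encode the small nucleolar RNAs (snoRNAs) and spliceosomal RNAs. They were taken here as all noncoding genes of the R64 annotation with a standard name starting with SNR, leaving out SNR6 and SNR52, which RNA polymerase III (RNAPIII) transcribes. This gave 79 genes among the 6156 annotated nuclear genes other than tRNA genes. By arrangement, 52 were independent, 19 lay in clusters of SNR genes on the same strand with gaps of up to 500 bp, and 8 lay within an intron of a protein-coding gene. By class of RNA, 29 were box H/ACA snoRNAs, 46 were box C/D snoRNAs and 4 were spliceosomal entries.

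Chromatin carrying Smt3, the SUMO peptide of yeast, had been immunoprecipitated and sequenced (SUMO ChIP-seq). The samples were cultures with the ubc9-6 genotype (untreated), WT cultures after heat shock and untreated WT cultures, all in the W303a background, grown in SC medium at 30 °C, with 2 replicates per group. In ubc9-6, copies of the ubc9-1 allele stand in tandem at the locus of Ubc9, the only SUMO-conjugating enzyme of yeast, and the activity of the enzyme is lowered. Heat shock was 12 min at 37 °C. Each of the 6 immunoprecipitates has a list of peaks that the authors called against its own input, and the 6 inputs enter only there. The replicates are described as independent experiments, without saying whether they were separate cultures, so p-values measure only the spread between these samples. An SNR gene was given a peak when a summit lay within 250 bp of it and farther than 250 bp from any tRNA gene. Values are the fold enrichment at the summit, a ratio over local background.

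Most snoRNAs guide chemical modification of ribosomal RNA, and a few are needed to cut the ribosomal RNA precursor. Box H/ACA snoRNAs guide pseudouridylation, and box C/D snoRNAs guide methylation of the ribose. In yeast, most snoRNA genes have a promoter of their own that is read by RNA polymerase II, others are cut out of a transcript with several snoRNAs, and a few are released from introns. Many independent box C/D snoRNAs are made with a leader that is removed, so that the 5′ end of the RNA lies downstream of the start of transcription. Many promoters of independent snoRNA genes bind the factor Tbf1.

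The ubc9-6-labelled lists held 600 and 709 peaks, the heat-shock-labelled lists 302 and 319, and those of untreated WT 714 and 842. The genome background recovered from the peak scores ran from 114 to 140 fragments at a base over the 6 lists. The number of fragments at SNR summits left a counting error of at most 7.56%, which covers counting error only. The labels of the first 2 groups were doubtful. Of 25 heat-shock genes, 13 and 14 had a promoter peak in the ubc9-6-labelled lists, 0 and 0 in the heat-shock-labelled lists, and 7 and 5 in untreated WT. HSP104, a disaggregase induced by heat, had fold enrichments of 1.96 and 2.28 in the ubc9-6-labelled lists and no promoter peak in the other 4 lists. Outside RPGs, 179 and 232 protein-coding genes had a promoter peak in the ubc9-6-labelled lists, 12 and 29 in the heat-shock-labelled lists, and 277 and 328 in untreated WT. Of the tRNA genes, 264 and 266 had a peak in the ubc9-6-labelled lists, 253 and 265 in the heat-shock-labelled lists, and 270 and 269 in untreated WT. The paper reports that promoter peaks outside RPGs were almost lost in the mutant of the SUMO-conjugating enzyme. It adds that some peaks, above all those at tRNA genes, were stable there. By the counts above, the heat-shock-labelled lists had that pattern, and the ubc9-6-labelled lists kept many promoter peaks outside RPGs. An exchange of labels was not tested. The tie from list to group rests on the sample descriptions alone. The abbreviated names of the lists can be read as the opposite assignment of these groups. The lists are therefore called ubc9-6-labelled and heat-shock-labelled. Which of these groups a value below belongs to rests on labels that may be exchanged.

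The 5 SNR genes shown here hold a Tbf1-type motif (AACCCTA or AGCCCTA). To show where SUMO lay near them, the sequences around their summits in untreated WT replicate 2 are given. Each runs from 200 bases before to 20 bases after the summit on the strand of the RNA, in build sacCer3 (R64), with the motif in capitals. SNR37 (chrX:228473-228693, minus strand) and SNR10 (chrVII:345762-345982, plus strand) are box H/ACA genes. SNR13 (chrIV:1402687-1402907, plus strand) is a box C/D gene with the summit close to the RNA. SNR47 (chrIV:541818-542038, minus strand) and SNR71 (chrVIII:410860-411080, plus strand) are box C/D genes with the summit farther upstream.
SNR37: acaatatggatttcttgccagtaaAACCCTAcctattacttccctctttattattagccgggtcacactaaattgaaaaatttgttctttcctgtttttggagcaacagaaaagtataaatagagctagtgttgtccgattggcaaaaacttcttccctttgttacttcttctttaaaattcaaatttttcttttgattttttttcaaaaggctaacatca
SNR10: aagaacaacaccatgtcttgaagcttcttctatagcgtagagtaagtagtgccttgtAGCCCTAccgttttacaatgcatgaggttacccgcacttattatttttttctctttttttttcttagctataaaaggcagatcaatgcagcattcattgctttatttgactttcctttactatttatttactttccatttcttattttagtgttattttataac
SNR13: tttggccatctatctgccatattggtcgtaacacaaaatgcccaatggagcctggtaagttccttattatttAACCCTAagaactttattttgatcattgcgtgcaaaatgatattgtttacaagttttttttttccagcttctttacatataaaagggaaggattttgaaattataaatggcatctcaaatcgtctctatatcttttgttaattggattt
SNR47: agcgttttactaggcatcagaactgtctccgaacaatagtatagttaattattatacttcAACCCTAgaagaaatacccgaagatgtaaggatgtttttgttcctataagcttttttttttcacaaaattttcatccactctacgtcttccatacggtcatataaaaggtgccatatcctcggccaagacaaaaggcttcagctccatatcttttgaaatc
SNR71: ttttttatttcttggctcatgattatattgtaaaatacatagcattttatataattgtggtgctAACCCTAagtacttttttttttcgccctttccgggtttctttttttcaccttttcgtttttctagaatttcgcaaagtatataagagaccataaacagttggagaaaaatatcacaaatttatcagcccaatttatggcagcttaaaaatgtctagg
The middle base of the motif lay at −173, −140, −125, −137 and −133 bp from these summits, in the order printed. The same summits lay at −14, −24, −32, −138 and −168 bp from the 5′ end of the RNA, counted along its strand so that a negative value is upstream. The 5 genes are examples that include both kinds of summit position, so the spread of these distances is not compared over them. The summits of SNR10 and SNR13 also lay in the promoter windows of YGL088W and TRS31. Which gene those peaks belong to cannot be told apart.

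In untreated WT, 42 of the 79 SNR genes (53.2%, Wilson 95% interval 42.3% to 63.8%) had a SUMO peak in both replicates, against 5.10% of all 6156 genes under the same rule. SNR genes are short, with a median length of 160 bp against 1182 bp for all genes, so the window around them is the smaller one. With the window set at 250 bp around the 5′ end alone, 51.9% of SNR genes and 3.69% of all genes had a peak in both replicates. The 42 genes shared 40 peaks, since SNR7-L and SNR7-S, the long and short forms of U5, are entries for 1 gene, and the divergent SNR5 and SNR31 lie on either side of 1 summit. The promoter window of a protein-coding gene also held the summit at 22 of them, of which 3 were ribosomal protein genes (RPGs) and 19 were other genes, and which gene such a peak belongs to cannot be told apart. That left 20 SNR genes with no protein-coding promoter in reach (8 box H/ACA, 10 box C/D and 2 spliceosomal), with median fold enrichments of 2.88 and 2.99. Among the 22 with a shared summit were SNR7 (PET54), SNR8 (FSF1), SNR10 (YGL088W), SNR13 (TRS31), SNR64 (TRP3) and SNR78 (SEC59).

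In the ubc9-6-labelled lists, 28 and 35 SNR genes had a peak, in the heat-shock-labelled lists 0 and 0, and in untreated WT 43 and 44. The ubc9-6-labelled lists averaged 31.5 ± 4.95 genes and untreated WT 43.5 ± 0.707 (SD, n = 2 each), a difference of −12 that was larger than the spread between replicates. An exact permutation test over libraries (two-sided) gave p = 0.333 for this difference and for the difference of −43.5 between the heat-shock-labelled lists and untreated WT, the smallest p that 2 libraries against 2 allow. A peak in both replicates was found at 27 SNR genes (34.2%, 24.7% to 45.2%) in the ubc9-6-labelled lists, against 4.04% of all genes. None was found in the heat-shock-labelled lists, against 0.520% of all genes, and 0 of 79 genes allows a share of up to 3.80%. The lowest summits in the heat-shock-labelled lists held 162 and 170 fragments, and SNR summits in untreated WT held 180 to 1715 and 187 to 2848. These counts come from different libraries that are not scaled to each other. Whether SNR signal in the heat-shock-labelled lists fell under the limit of the caller was not tested. The lists differ in length, and with the best 302 peaks of each, 1 SNR gene had a peak in both ubc9-6-labelled lists, 0 in both heat-shock-labelled lists and 2 in both of untreated WT. With summits within 100 bp, the counts in both replicates were 15, 0 and 20.

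**Figure D1:**
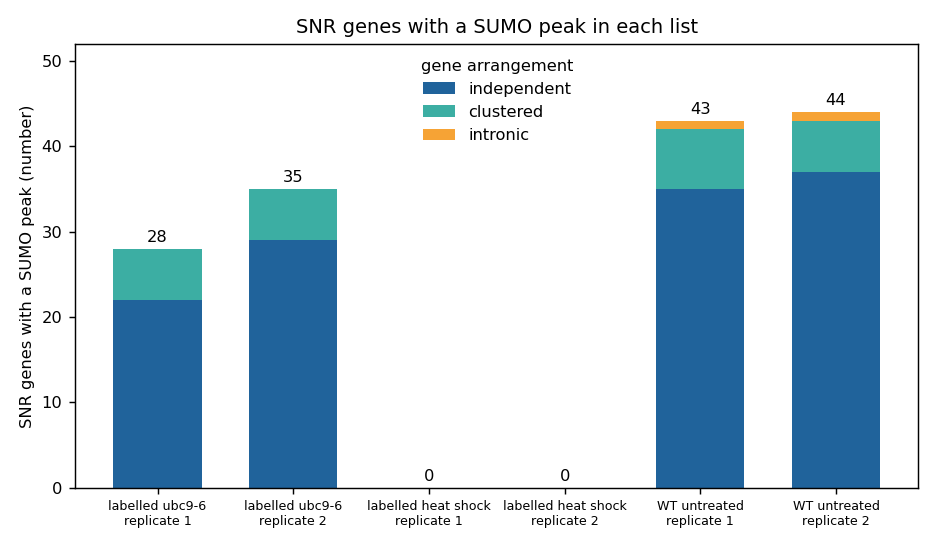
Number of SNR genes with a SUMO peak (vertical axis) in each of the 6 lists (horizontal axis), coloured by gene arrangement. The ubc9-6-labelled lists have 28 and 35 genes, the heat-shock-labelled lists have 0 and 0, and those of untreated WT have 43 and 44.

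Peaks were then counted by the arrangement of the genes. In untreated WT, 35 of the 52 independent genes (67.3%, 53.8% to 78.5%), 6 of the 19 clustered genes (31.6%, 15.4% to 54.0%) and 1 of the 8 intronic genes (12.5%, 2.24% to 47.1%) had a peak in both replicates. The share of all genes under the same rule was 5.10%, which lies within the interval of the intronic genes. In the ubc9-6-labelled lists the counts were 21, 6 and 0, and in the heat-shock-labelled lists 0, 0 and 0. Counting SNR7 once and as independent, a choice made after the data were seen, gave 36 of 53 independent genes (67.9%) and 4 of 17 clustered genes (23.5%). Genes in a cluster can share a promoter, so these intervals, which just overlap between independent and clustered genes, cover counting error only, and no test was run over genes. Counted by cluster, 4 of the 5 snoRNA clusters had a peak in both untreated WT replicates, so the lower share of clustered genes holds per gene and not per cluster. By class of independent RNA, 17 of 27 box H/ACA genes (63.0%) and 16 of 23 box C/D genes (69.6%) had a peak in both untreated WT replicates, and their intervals (44.2% to 78.5% and 49.1% to 84.4%) overlapped.

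Peaks at SNR genes were of moderate height. Their median fold enrichment was 2.09 and 2.06 in the ubc9-6-labelled lists and 3.12 and 3.06 in untreated WT. In the same untreated WT lists the medians were 10.1 and 20.04 at RPG promoters, 8.17 and 11.3 at tRNA genes, and 2.38 and 2.44 at the other protein-coding promoters. In the ubc9-6-labelled lists these other promoters had medians of 2.26 and 2.24, above those of SNR genes. The 2 untreated WT replicates gave close values at the 42 genes, with a median ratio of replicate 2 to replicate 1 of 1.03 (range 0.791 to 1.99) and a median distance between their summits of 12 bp.

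Among independent genes, SNR17A, the first of the genes for U3, an RNA of the complex that processes the small ribosomal subunit, had the highest values. Its fold enrichment was 8.42 and 11.3 in the ubc9-6-labelled lists and 14.6 and 22.8 in untreated WT. The RPG RPL33B is transcribed away from SNR17A, and the better-scoring WT summit lay at −470 bp from its start codon. The WT summits themselves lay far apart, at −72 and −232 bp from the 5′ end of the RNA. The paralog SNR17B, which also encodes U3, had no peak within 250 bp. Its nearest summits were just outside, at 260 and 255 bp in the ubc9-6-labelled lists, with fold enrichments of 5.18 and 6.66, and at 254 and 251 bp in untreated WT, with fold enrichments of 7.0 and 12.7. These summits lay in the promoter window of RPL33A, so both U3 genes have a summit shared with a copy of the same RPG.

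SNR45 was next. It encodes a box C/D RNA that guides acetylation of ribosomal RNA by Kre33, and its fold enrichment was 4.33 and 4.13 in the ubc9-6-labelled lists and 12.7 and 11.7 in untreated WT. The groups did not overlap, with both ubc9-6-labelled values the lower, as at 76.7% of the 202 genes other than tRNA genes with a peak in all 4 lists. The ratio of 0.348 between the groups (geometric means, labelled ubc9-6 over untreated WT) was the lowest of the SNR genes with a peak in all 4 lists. Its WT summits lay at −9 and −8 bp from the RNA, with NOC4 transcribed from a start codon within reach of the same peak. SNR4, which also guides acetylation by Kre33, had 1.61 and 1.58 in the ubc9-6-labelled lists and 3.39 and 3.77 in untreated WT.

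Below these, box H/ACA and box C/D genes were mixed in height. Of the box H/ACA genes, SNR37, with a role in the early steps of the large ribosomal subunit, had fold enrichments of 2.56 and 2.69 in the ubc9-6-labelled lists and 5.81 and 6.70 in untreated WT. SNR10, needed for early cuts of the ribosomal RNA precursor, had 2.49 and 2.43 in the ubc9-6-labelled lists and 5.19 and 5.88 in untreated WT. SNR30, an essential RNA needed to release the precursor of the small subunit RNA, had 2.23 and 2.46 in the ubc9-6-labelled lists and 5.20 and 4.72 in untreated WT. In each of these genes both untreated WT values lay above both values labelled ubc9-6, as at 76.7% of the 202 genes. SNR8, a guide for the large subunit RNA, had 1.76 and 2.37 in the ubc9-6-labelled lists and 4.97 and 4.35 in untreated WT, again without overlap.

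SNR49, a box H/ACA guide for both subunits, behaved otherwise. It had fold enrichments of 5.24 and 5.06 in untreated WT, with summits at −22 and −31 bp, and no summit within reach in any other list. In the ubc9-6-labelled lists a peak interval still ran over the gene, but its summits lay at −520 and −531 bp, with fold enrichments of 2.53 and 2.89. SUMO signal was thus still called over the gene, with its summit elsewhere.

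Among the other strong box C/D genes, SNR40, a methylation guide for both subunits, had fold enrichments of 2.29 and 2.36 in the ubc9-6-labelled lists and 4.81 and 5.77 in untreated WT. SNR13, a guide for the large subunit RNA, had 2.26 and 2.50 in the ubc9-6-labelled lists and 4.91 and 5.34 in untreated WT. SNR47, a guide for both subunits, had 2.13 and 2.29 in the ubc9-6-labelled lists and 4.11 and 4.45 in untreated WT. None of these 3 genes had overlapping groups, and the ubc9-6-labelled values were the lower, which held for 76.7% of the 202 genes too. SNR39B, a methylation guide, had 2.51 and 3.69 in the ubc9-6-labelled lists and 3.71 and 7.38 in untreated WT, and SNR189, a pseudouridylation guide, had 2.90 and 2.92 in the ubc9-6-labelled lists and 3.06 and 5.30 in untreated WT. The groups nearly touched at both genes, whose summits lay downstream of the RNA start, at +237 bp in both WT replicates for SNR39B and at +326 and +341 bp for SNR189. Those summits lay at −236 bp from the start codon of RPL7A and at −237 bp from that of RPS14A, both RPGs. The other independent genes with a peak in both untreated WT lists had mean fold enrichments there from 4.13 (SNR64, a methylation guide) to 1.47 (SNR62).

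**Figure D2:**
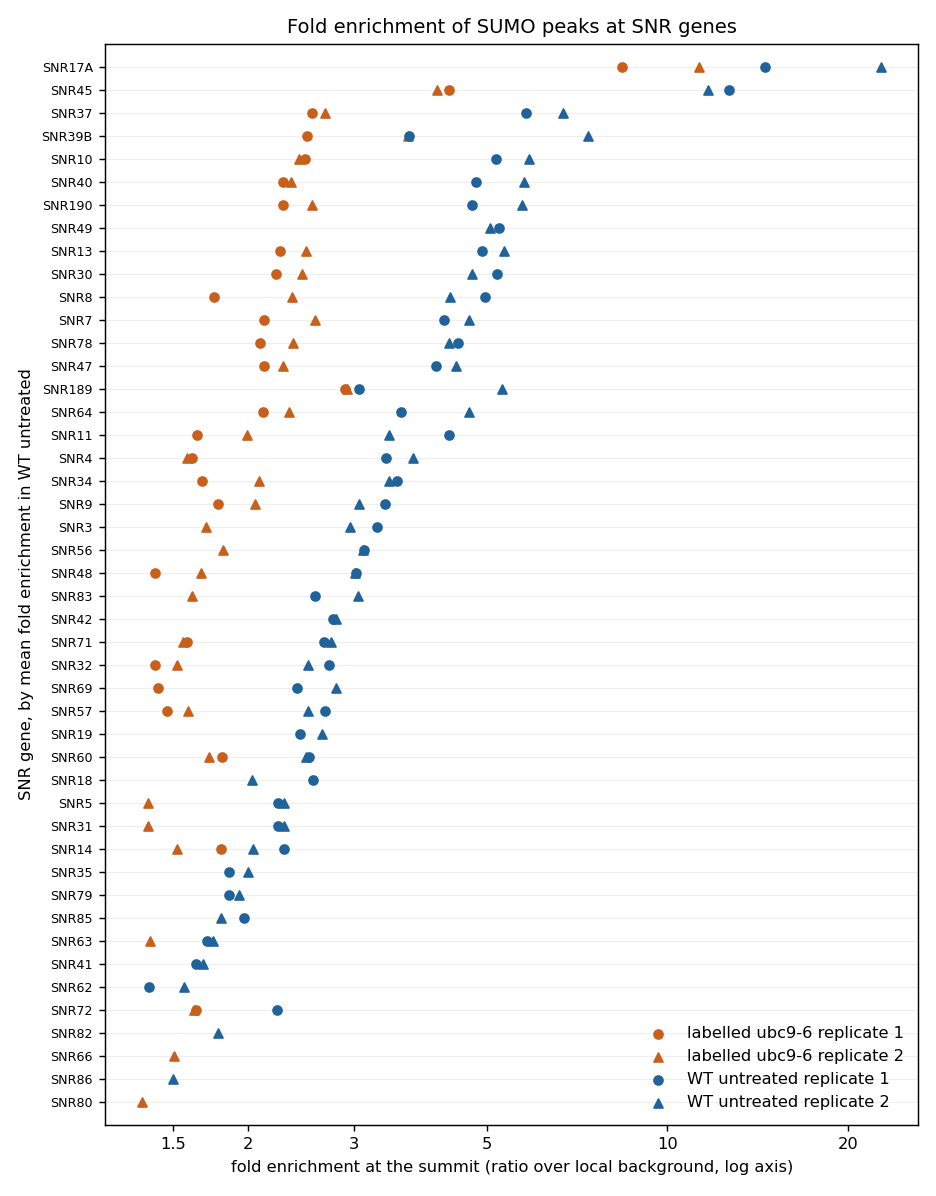
Fold enrichment at the summit (horizontal log axis, ratio over local background) for each SNR gene with a peak in any list (vertical axis, by mean in untreated WT, with SNR7 drawn once), orange for the ubc9-6-labelled lists and blue for untreated WT, circles for replicate 1 and triangles for replicate 2. The heat-shock-labelled lists have no point, and at the 26 entries with a peak in all 4 lists both orange points lie left of both blue ones. The same order held at 76.7% of the 202 genes other than tRNA genes with a peak in all 4 lists.

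All 4 spliceosomal entries had a peak in both untreated WT replicates. SNR7 (U5), a part of the catalytic spliceosome, had fold enrichments of 2.13 and 2.58 in the ubc9-6-labelled lists and 4.24 and 4.68 in untreated WT. SNR14 (U4), the partner of U6, had 1.80 and 1.52 in the ubc9-6-labelled lists and 2.301 and 2.04 in untreated WT. SNR19 (U1), which recognises the 5′ splice site, had 2.45 and 2.66 in untreated WT and no peak in the other lists. LSR1, the gene of U2, which the naming rule leaves out, had 2.04 and 2.32 in untreated WT and likewise no peak elsewhere. The 4 U RNAs made by RNA polymerase II thus carried a peak in both untreated WT lists. SNR6, the gene of U6 and read by RNAPIII, had a peak in all 6 lists, with 6.48 and 7.003 in the ubc9-6-labelled lists, 2.60 and 3.95 in the heat-shock-labelled lists, and 12.3 and 13.9 in untreated WT. SNR52, the snoRNA gene read by RNAPIII, had 17.2 and 18.0 in the ubc9-6-labelled lists, 3.07 and 4.86 in the heat-shock-labelled lists, and 26.5 and 38.2 in untreated WT. The RNAPIII genes were the only SNR-named genes with a peak in the heat-shock-labelled lists under the rule used here.

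Other small RNA genes varied in the same lists. NME1, the RNA of RNase MRP, had fold enrichments of 1.66 and 1.83 in the ubc9-6-labelled lists and 2.91 and 2.72 in untreated WT. RPR1, the RNA of RNase P, which RNAPIII reads, had 11.1 and 12.4 in the ubc9-6-labelled lists and 17.4 and 25.03 in untreated WT, and no peak in the heat-shock-labelled lists. SCR1, the RNA of the signal recognition particle, also read by RNAPIII, had 4.64 and 5.55 in the ubc9-6-labelled lists, 2.73 and 4.73 in the heat-shock-labelled lists, and 9.65 in untreated WT replicate 1 alone. TLC1, the telomerase RNA, had no peak in any list.

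In 4 of the 5 clusters of snoRNA genes, all of box C/D, SUMO was found at the upstream edge. In the largest cluster, from SNR78 to SNR72 on chromosome XIII (297278 to 298651, plus strand), the summit lay at −189 and −197 bp from the first RNA in the ubc9-6-labelled lists and at −197 and −192 bp in untreated WT. Its fold enrichment was 2.09 and 2.37 in the ubc9-6-labelled lists and 4.49 and 4.32 in untreated WT. The better-scoring WT summit lay at −343 bp from the start codon of SEC59. The 5 genes SNR77, SNR76, SNR75, SNR74 and SNR73 had no summit within reach in any list. A weaker summit beyond the last gene, SNR72, lay at +1395 and +1446 bp from the first RNA in the ubc9-6-labelled lists, with fold enrichments of 1.64 and 1.63, and at +1457 bp in untreated WT replicate 1, with 2.23, near the start of BUD22. In untreated WT replicate 2 a single peak 2112 bp wide covered this cluster, with 1 summit at its upstream edge.

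The pair SNR190 and SNR128 had the strongest cluster peak. SNR128 is U14, an essential RNA needed to cut the ribosomal RNA precursor. The summit lay at −182 and −181 bp from SNR190 in the ubc9-6-labelled lists, with fold enrichments of 2.29 and 2.56, and at −179 and −172 bp in untreated WT, with 4.72 and 5.72. SNR128 itself lay 438 and 431 bp from the WT summits and had no peak of its own. RPA34, a subunit of RNA polymerase I, starts within reach of the same summit. In the cluster SNR57, SNR55 and SNR61 the summit lay at −82 and −103 bp in the ubc9-6-labelled lists, with fold enrichments of 1.47 and 1.59, and at −203 and −215 bp in untreated WT, with 2.68 and 2.52. In the cluster SNR41, SNR70 and SNR51 a weak summit at −156 and −90 bp, with 1.64 and 1.69, was seen in untreated WT alone. The pair SNR67 and SNR53 had no peak under the rule. Near SNR53 the tRNA rule had set aside a summit in all 6 lists, and near SNR67 a summit of 1.91 in untreated WT replicate 1 lay 267 bp away.

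**Figure D3:**
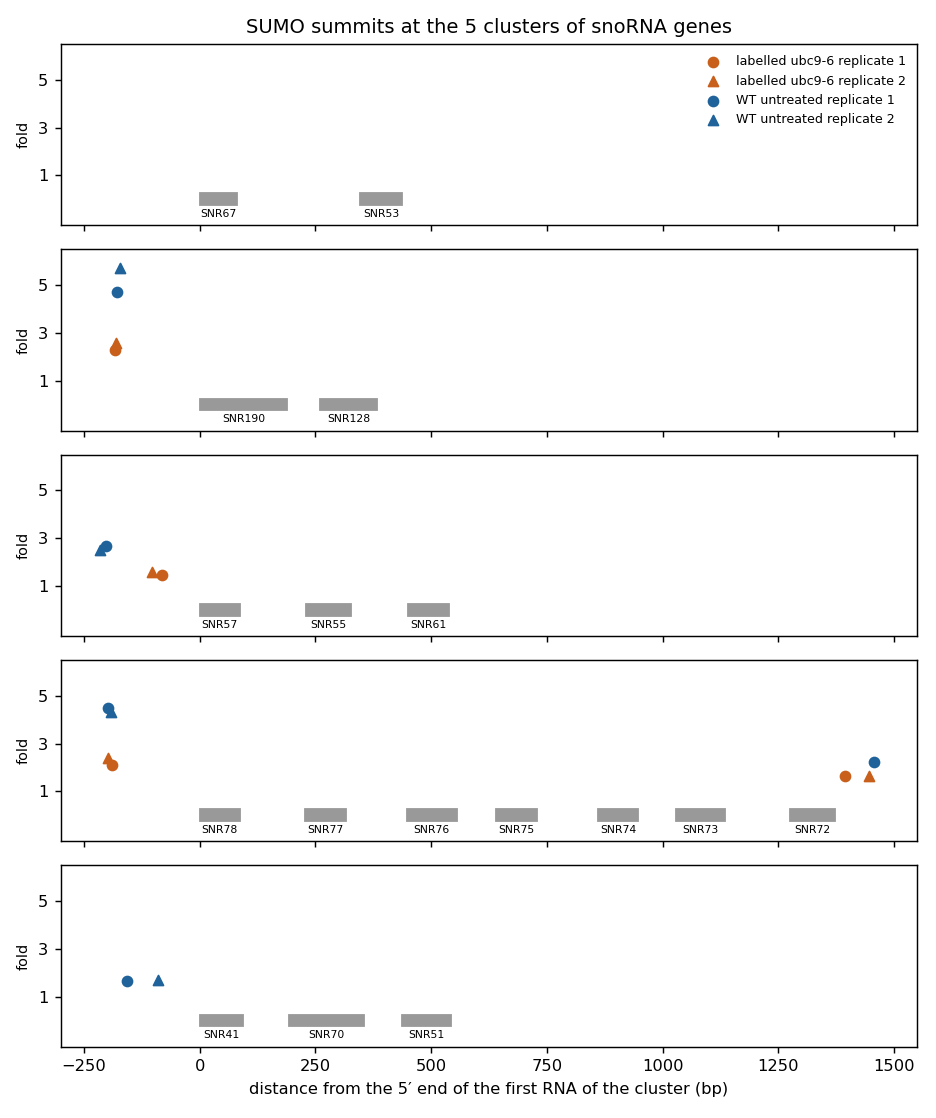
SUMO summits at the 5 clusters of snoRNA genes, 1 panel each, drawn by distance from the 5′ end of the first RNA (horizontal axis, bp) and fold enrichment (vertical axis). Grey boxes are the RNAs, orange points the ubc9-6-labelled lists and blue points untreated WT. In 4 of the clusters WT summits of both replicates lie upstream of the first RNA, the cluster from SNR78 to SNR72 has further points past its last gene, and no point lies over the inner genes.

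Of the 8 intronic snoRNA genes, 1 had a peak in both untreated WT replicates (12.5%), against 5.10% of all genes, so this count does not set them apart. Only SNR18, a methylation guide within EFB1, the gene of a translation elongation factor, had peaks, with fold enrichments of 2.57 and 2.03 in untreated WT. These summits lay at 250 and 213 bp from the RNA, the first at the very edge of the window, and the better-scoring one at −57 bp from the start codon of EFB1. In ubc9-6-labelled replicate 2, a peak 3507 bp wide ran over SNR18 with its summit 3217 bp away. The other 7 intronic genes had no peak in any list. Some of their host promoters did. In the ubc9-6-labelled lists the fold enrichments were 2.51 and 3.69 for RPL7A, 2.02 and 2.92 for RPL7B, and 1.35 for ASC1 in replicate 2 alone. The untreated WT fold enrichments were 3.71 and 7.38 for RPL7A (host of SNR39), 3.49 and 5.86 for RPL7B (SNR59), 1.77 and 2.03 for ASC1 (SNR24), 1.58 and 1.85 for RPS22B (SNR44), and 1.59 and 1.46 for TEF4 (SNR38). The WT summits lay at 981 and 981 bp from SNR39 and at 876 and 883 bp from SNR59. TEF4 was the nearest, with summits at 343 and 353 bp from SNR38. IMD4 (host of SNR54) and NOG2 (host of SNR191) had no promoter peak in any list.

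The position of the summit differed between the classes of RNA. Over the 35 independent genes with a peak in both untreated WT replicates, the median position was −45.5 bp, and 33 of them had the summit upstream of the RNA. In box H/ACA genes the median was −31.5 bp (n = 17, quartiles −47 and −24.5), and 13 of 17 lay within 75 bp upstream. The exceptions were SNR189, with its summit downstream of the RNA, SNR31, which shares its summit with the divergent SNR5, SNR83 at −149.5 bp and SNR85 at −94.5 bp. In box C/D genes of all arrangements the median was −169 bp (n = 21, quartiles −187 and −138.5), and 17 of 21 lay farther than 75 bp upstream. The box C/D genes with the summit close to the RNA were SNR45 at −8.5 bp, SNR13 at −29 bp and SNR4 at −44.5 bp, and SNR39B lay downstream. The spliceosomal genes lay at −36.5 bp (SNR19), −29.5 bp (SNR7) and −3 bp (SNR14). These positions are a description, and no test was run over genes.

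**Figure D4:**
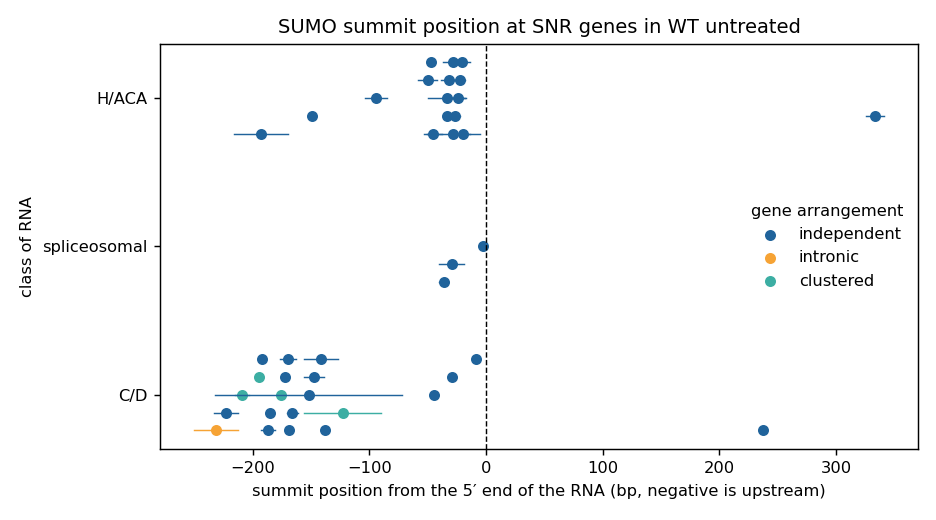
Position of the untreated WT summit from the 5′ end of the RNA (horizontal axis, bp, negative is upstream) by class of RNA, with 1 point per gene at the mean of the replicates, a line between the replicates, and SNR7 drawn once as independent. Box H/ACA and spliceosomal points gather just upstream of the RNA, and most box C/D points lie between −123 and −223 bp.

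Both strands of the 50 bp on either side of the 40 untreated WT summits were searched for motifs. AACCCTA (Tbf1), TTACCCG (Reb1) and the Abf1 motif were found at 0 of 40 summits each, which allows a share of up to 7.50%, against 0.810%, 1.66% and 2.76% of intergenic windows of that length. The Rap1 motif (at most 2 mismatches), which marks RPG promoters, was found at 1 (2.50%, against 2.49% of windows). TATAAA or TATATA was found at 16 summits (40%, 26.3% to 55.4%, against 28.4% of windows). Within 50 bp, neither count stood out from the windows beyond its interval. TATA elements farther than 50 bp from a summit are not counted here. In the sequences printed above, SNR37, SNR10 and SNR71 hold TATAAA or TATATA more than 50 bp upstream of the summit. The paper reports a TATA-like motif at most of its promoter peaks outside RPGs without a Rap1 site, from longer sequences. A wider window for TATA was not searched.

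The search was then widened, after these values had been seen, to AACCCTA or AGCCCTA in the 400 bp before the RNA. The motif was found at 28 of 52 independent genes (53.8%), 3 of 19 clustered genes (15.8%) and 0 of 8 intronic genes, against 6.09% of all 6156 genes. At protein-coding genes the 400 bp were counted from the annotated gene start, so the stretches of promoter searched can differ. With AACCCTA alone the shares were 11 of 52 independent genes (21.2%) against 3.67% of all genes. The search for either form had a match at 20 of the 35 independent genes with a peak in both untreated WT replicates (57.1%) and at 8 of the 17 others (47.1%). TTACCCG was found at 9 of 27 independent box H/ACA genes (33.3%) and 2 of 23 independent box C/D genes (8.70%), against 9.28% of all genes.

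Over all called genes that held the motif, its place followed the summit more closely than the RNA. By range this did not hold within box H/ACA genes. Over 22 genes the middle of the motif had a median distance of −133.75 bp from the mean untreated WT summit, with quartiles of −140.5 and −129.375 bp. From the 5′ end of the RNA the median was −231 bp, with quartiles of −301 and −168 bp. In box H/ACA genes (n = 8) the median was −167.5 bp from the RNA and −135.75 bp from the summit. Their ranges were −189 to −98 bp from the RNA and −166 to +95 bp from the summit. In box C/D genes (n = 13) the medians were −301 bp and −132 bp. The motif ran on the strand of the RNA at 20 of the 22 genes. SNR31 is the exception in direction, at +95 bp, because its motif and its summit are those of SNR5, which are thus counted at both genes.

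**Figure D5:**
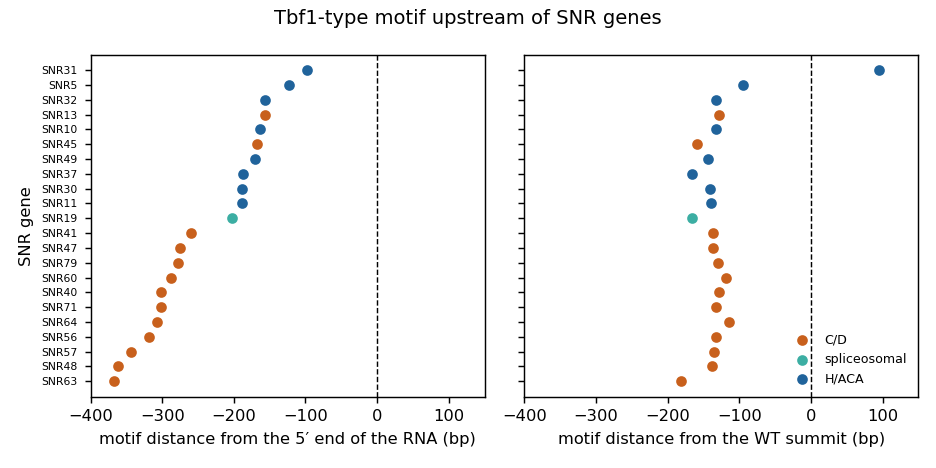
Distance of the Tbf1-type motif (AACCCTA or AGCCCTA) from the 5′ end of the RNA (left, bp) and from the mean untreated WT summit (right, bp) for the 22 called SNR genes that hold it, coloured by class of RNA. On the left the classes spread from −98 to −367 bp, and on the right most points stand in a column near −134 bp, with SNR31 at +95 bp.

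The ubc9-6-labelled lists kept 26 of the 42 SNR entries called in untreated WT (61.9%, 46.8% to 75%), and a further 7 (SNR3, SNR5, SNR31, SNR56, SNR63, SNR69 and SNR83) had a peak in 1 of the 2 lists. At SNR63 that peak was another one, at +372 bp from the 5′ end of the RNA, against −189 and −182 bp in untreated WT. The other 9, with no summit within reach in either, were SNR18, SNR19, SNR35, SNR41, SNR42, SNR49, SNR62, SNR79 and SNR85, although a peak interval ran over SNR49 in both lists and over SNR18 in replicate 2. The 16 entries not kept are 38.1% of the 42, close to the 35.7% of all genes called in untreated WT that were not called there. Entries that were kept had a median WT fold enrichment of 4.34 (2.17 to 18.7) and those not kept one of 2.28 (1.47 to 5.15, the highest being SNR49). The heat-shock-labelled lists kept 0 of the 42, where 94.9% of all genes called in untreated WT were not called. SNR72 was the only SNR gene called in both ubc9-6-labelled lists and not in both of untreated WT.

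At all 26 kept entries both fold enrichments were lower in the ubc9-6-labelled lists than in untreated WT, which was so for 76.7% of the 202 genes other than tRNA genes with a peak in all 4 lists. It was also so for 260 of 263 tRNA genes and 90 of 120 RPG promoters. The median ratio, labelled ubc9-6 over untreated WT, was 0.521 at SNR genes (range 0.348 to 0.765), 0.604 over all 202 genes, 0.575 at RPG promoters, 0.613 at other protein-coding promoters and 0.569 at tRNA genes. A gene enters these ratios only with a peak in all 4 lists, so weak peaks that were lost do not count. The smallest changes were at SNR14 (0.765), SNR189 (0.723) and SNR60 (0.702). Summits stayed within 25 bp of their untreated WT position at 18 of the 26 entries, with a median shift of 11 bp towards the RNA. The shift ran from −71.5 to +116.5 bp.

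Of the 79 genes, 32 had no peak in any list, of which 13 were independent, 12 clustered and 7 intronic. The independent ones were the box H/ACA genes SNR161, SNR43, SNR33, SNR84, SNR46, SNR81 and SNR36 and the box C/D genes SNR65, SNR68, SNR87, SNR58, SNR50 and SNR17B. Several of these lay next to a summit that the rule left out. SNR33 had a summit 239 to 250 bp away in all 6 lists, which lay 14 to 25 bp from a tRNA gene, and SNR68 had untreated WT summits of 1.90 and 2.13 at 263 and 280 bp. SNR87 had summits at 378 and 377 bp in the ubc9-6-labelled lists, with fold enrichments of 8.91 and 11.9, and at 374 and 376 bp in untreated WT, with 11.2 and 22.2, in the promoter window of RPL14A. Peaks in a single list were found at SNR82 (1.78) and SNR86 (1.502) in untreated WT replicate 2, and at SNR80 (1.33) and SNR66 (1.51) in ubc9-6-labelled replicate 2.

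Genes of proteins that bind these RNAs were also counted. Of 8 genes of snoRNP core proteins, SNU13, a protein of box C/D particles and of the U4 particle, had promoter peaks of 2.02 and 2.03 in untreated WT, and the other 7 had none in any list. None of the 7 genes of Sm ring proteins, which bind spliceosomal RNAs, had a promoter peak in any list. Over all protein-coding genes, 5.95% had a promoter peak in both untreated WT replicates, so counts this small do not set these lists apart.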

How the data were processed

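SUMO ChIP-seq was analysed from 6 deposited lists of narrow peaks (2 per group). Per the labels and methods, paired-end reads were placed on sacCer3 by the authors with Bowtie2 2.3.5. MACS2 2.1.1.20160309 called the peaks of every library with the matched input as control (q-value limit 0.05). The handling of reads that fit several places is not given in the sources used here. The deposited fold enrichment is a ratio at the summit over local background, and the deposited p-value and q-value are on the −log10 scale. Fragments at each summit and the local background were recovered from the fold enrichment and p-value of the authors' caller, and 99.0% of 3486 peaks gave a count within 0.05 of a whole number. The genome background of a list was the low end (5th percentile) of its nuclear local backgrounds.

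Genes came from the RefSeq annotation of R64, the same assembly as sacCer3, and the cells were W303a. Promoter windows ran from 500 bp upstream to 200 bp downstream of the start codon, and from 800 bp upstream to 100 bp downstream for RPGs. The best peak by p-value was used per gene and list. Groups of libraries were compared by the exact permutation test, and shares have Wilson 95% intervals. For a count of 0, the share that is allowed was taken instead as 3 over the number of genes or summits. The genes named are all intronic, clustered, spliceosomal and U3 genes, the 12 independent genes with the highest mean fold enrichment in WT untreated, and those with no peak in any list, while others were named after their values were seen. Members and lists were chosen with earlier results of these data known. The alternatives were other windows, the tRNA rule, a fold limit of 2, lists of equal length, single replicates and a replicate block. The functions were tested on simulated data. Calculations used Python, NumPy and SciPy.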

Additional observations from a re-analysis of the deposited data

How the results depend on the processing

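The 2 comparisons of groups kept their direction under every alternative run, but not their size. The difference between the ubc9-6-labelled lists and untreated WT was −6 within 100 bp, −20 at a fold enrichment of 2 or more and −1 with the best 302 peaks, and that of the heat-shock-labelled lists ran from −52.5 (within 500 bp) to −2 (best 302 peaks). With the replicate block (paired by number) the differences stayed at −12 and −43.5, with an exact sign-flip p of 0.5, the smallest that 2 pairs allow. The numbers are not said to pair the libraries, and the replicate differences of the log2 fold enrichment correlated by 0.28 across the 26 SNR entries with a peak in all 4 lists. Leaving out each library moved the first difference from −15.5 to −8.5 and the second from −44 to −43. It moved the count in both replicates from 28 to 35 for the ubc9-6-labelled lists, from 0 to 0 for the heat-shock-labelled lists and from 43 to 44 for untreated WT, the share of independent genes from 67.3% to 71.2%, of clustered genes from 31.6% to 36.8% and of intronic genes from 12.5% to 12.5%, and the median summit position from −51 to −38 bp.

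A summit within 100 bp gave 15 genes in the ubc9-6-labelled lists, 20 in untreated WT, shares of 34.6%, 10.5% and 0% of independent, clustered and intronic genes, and a median position of −28.5 bp. Within 500 bp the shares were 73.1%, 52.6% and 25%. Keeping peaks near tRNA genes gave 2 genes in the heat-shock-labelled lists (SNR33 and SNR53) and 36.8% of clustered genes. A fold enrichment of 2 or more gave 15 genes in the ubc9-6-labelled lists, 57.7% of independent and 26.3% of clustered genes. With the best 302 peaks of each list, 1 gene in the ubc9-6-labelled lists and 2 genes in untreated WT remained (3.85% of independent, 0% of clustered and 0% of intronic genes), with a median position of −80.25 bp. A peak in either replicate gave 71.2% of independent and 36.8% of clustered genes. Leaving out peaks in RPG promoter windows, an alternative chosen after seeing the data, gave 61.5% of independent genes, and SNR7 counted once, also chosen then, gave 23.5% of clustered genes. Under the other alternatives the counts in both replicates stayed within 1.5 times, and the shares and the median position within the spread between replicates.

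The lists hold called peaks alone, so signal under the limit of the caller is not seen, and fold enrichments of libraries are not scaled to each other. Which group each difference belongs to rests on the assignment of the lists to the ubc9-6 and heat shock groups. The heat-shock gene counts, the promoter counts, the names of the lists and the paper's account of the mutant put that assignment in doubt. Both groups lay below untreated WT in the count of SNR genes, so an exchange would keep that direction.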
